A study of Mus musculus with 4 samples.

Results

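The miR-379 to miR-410 cluster is a long run of miRNA genes on distal chromosome 12 of the mouse, in the imprinted Dlk1-Dio3 region. Its members were taken by name from the authors' deposited table, as every row whose number belongs to the cluster, on either arm of the hairpin. The table held 59 such rows of 1167, and they came from 37 precursors. Of the 39 miRNA names searched, 37 had at least 1 row, and miR-544 and miR-453 had none. The table compares small RNA of the main olfactory epithelium, the sensory sheet at the back of the nose, between 2 wild-type and 2 AC3-/- libraries. All came from male C57BL/6 mice 3 months of age. AC3-/- mice lack adenylyl cyclase 3, the enzyme that makes cAMP when an odour receptor of a sensory neuron is activated. The labels give no further allele or treatment, name no promoter or cell type that limits the loss, and leave unsaid whether separate mice gave the libraries. The p-values therefore reflect the spread of these 4 libraries alone, and that spread may be technical. Small RNA reads do not measure the mRNA of the deleted gene, Adcy3, and the loss was not checked here. Adcy3 lies on the same chromosome, 105.5 Mb from the cluster.

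miRNAs are short RNAs cut from a hairpin precursor; the arm nearer the 5′ end gives the 5p miRNA and the other arm the 3p miRNA. One of them is usually kept by an Argonaute protein, and bases 2 to 8, the seed, pair with target mRNAs. The genes of this cluster are transcribed only from the chromosome inherited from the mother, as part of long noncoding transcripts, and are best known from brain and placenta. In cultured neurons several members, miR-134, miR-329 and miR-381 among them, are known for roles in dendrite growth and synapses, and transcription of the cluster there responds to neuronal activity.

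The precursors span 38.9 kb of chromosome 12, from 109709060 to 109747960 (GRCm38), and 36 of the 37 lie on the plus strand. Mir299b, on the minus strand, overlaps Mir299a. In the GENCODE M21 annotation the host gene Mirg runs from 109729764 to 109749460. It contains 13 of the 37 precursors, those from Mir382 onward, and the other 24, from Mir379 to Mir539, lie before its annotated start. Of the 13, 4 lie in an exon, 5 overlap the edge of an exon and 4 lie in an intron. The name Mirg thus covers 1 end of the cluster in this annotation.

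The sequences show how alike some members are and how different their seeds are. RefSeq (GRCm38.p6) held the mature sequence of 56 of the 59 members, with 53 distinct seeds, and only 3 seeds were shared. miR-379-5p shares its seed with miR-1193-5p, miR-379-3p with miR-411-3p, and miR-299a-3p with miR-299b-3p. The following are the most abundant members, those with the largest differences described further on, and miR-543-3p as the near relative of miR-495-3p, 5′ to 3′, with the seed in capitals:
miR-379-5p: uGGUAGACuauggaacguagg
miR-411-5p: uAGUAGACcguauagcguacg
miR-381-3p: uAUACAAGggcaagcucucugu
miR-300-3p: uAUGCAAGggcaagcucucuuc
miR-541-5p: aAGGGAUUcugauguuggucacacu
miR-382-3p: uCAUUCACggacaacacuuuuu
miR-134-5p: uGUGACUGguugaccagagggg
miR-495-3p: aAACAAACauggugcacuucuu
miR-543-3p: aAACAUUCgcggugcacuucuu
miR-323-3p: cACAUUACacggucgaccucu
miR-376b-5p: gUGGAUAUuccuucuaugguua
miR-409-3p: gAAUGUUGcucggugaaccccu
miR-496a-3p: uGAGUAUUacauggccaaucuc
miR-380-5p: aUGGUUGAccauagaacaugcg
miR-381-3p and miR-300-3p, from neighbouring precursors, differ at 3 of 22 positions (A4G, G21U and U22C, counted from the 5′ end of miR-381-3p). The first of these lies in the seed. How reads that match both closely were assigned is not given in the sources used here, so the split between these miRNAs is uncertain. miR-495-3p and miR-543-3p differ at 4 of 22 positions (A6U, A7U, A9G and U10C), 2 of them in the seed.

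A short pattern recurs in the cluster. The letters GGUNNAC, where N is any base, were found in 19 of the 56 member sequences (33.9%), against 26 of 947 miRNAs of the table with a RefSeq sequence (2.75%), so 19 of those 26 were members. The reverse complement, GUNNACC, was found in 12 members (21.4%) and 19 of the 947 (2.01%), and a sequence with both patterns, overlapping or not, counts under each. In 4 of the 19 members, miR-379-5p among them, the pattern is the seed itself, in 3 it overlaps part of the seed, and in 12 it lies after it. These 4 members carry it in the later bases of the 3p arm, in capitals:
miR-379-3p: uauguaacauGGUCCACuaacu
miR-411-3p: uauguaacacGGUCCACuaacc
miR-380-3p: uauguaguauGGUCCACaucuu
miR-323-3p: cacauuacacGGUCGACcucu
Of the 19, 15 lie before the annotated start of Mirg. The pattern was not part of the plan, and members from related or overlapping hairpins, such as Mir299a and Mir299b, are not separate cases. A match describes letters, not a site.

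The cluster was a small part of the miRNA of this tissue. Its members summed to a mean of 3234.2 normalised reads in AC3-/- and 2845.0 in wild type, which was 0.0370% and 0.0231% of all normalised reads in the table (8739148 and 12320877). Each deposited mean could be split into the whole reads of its 2 libraries, here called a and b as names only. The cluster had 3466 (a) and 3789 (b) reads in AC3-/- and 2696 (a) and 2416 (b) in wild type. Pairs of values below are given in the order a, b. As a mean over both genotypes, 31 of the 59 members had at least 10 normalised reads (52.5%, against 42.2% of all rows), 5 had at least 100 and 12 had less than 1. 5 members were listed at 0 in AC3-/- and 7 in wild type. Libraries of this kind ligate some sequences better than others, so the order of members by reads is not an order of molecules.

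Reads were concentrated in a few members spread over the cluster. miR-379-5p, from the first hairpin, had a mean of 894.4 normalised reads in AC3-/- and 995.5 in wild type. miR-381-3p, 17.76 kb further on, had 878.2 and 521.6, or 27.2% and 18.3% of the cluster. With miR-411-5p, miR-541-5p and miR-300-3p these made up 73.1% and 75.2%. Some other precursors among and after these gave almost no reads, while miR-299a-3p and both arms of Mir329 had moderate levels, given below. miR-1193-3p, 6.611 kb from the first hairpin, had a mean of 2.65 normalised reads in AC3-/- and 1.65 in wild type. miR-3072-3p, the last member, had 0.871 and 1.12. Among the 31 members with a mean of at least 10, the order of levels was nearly the same in both genotypes (Spearman's rho 0.90 across miRNAs, which are not independent and share a library preparation).

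**Figure D1:**
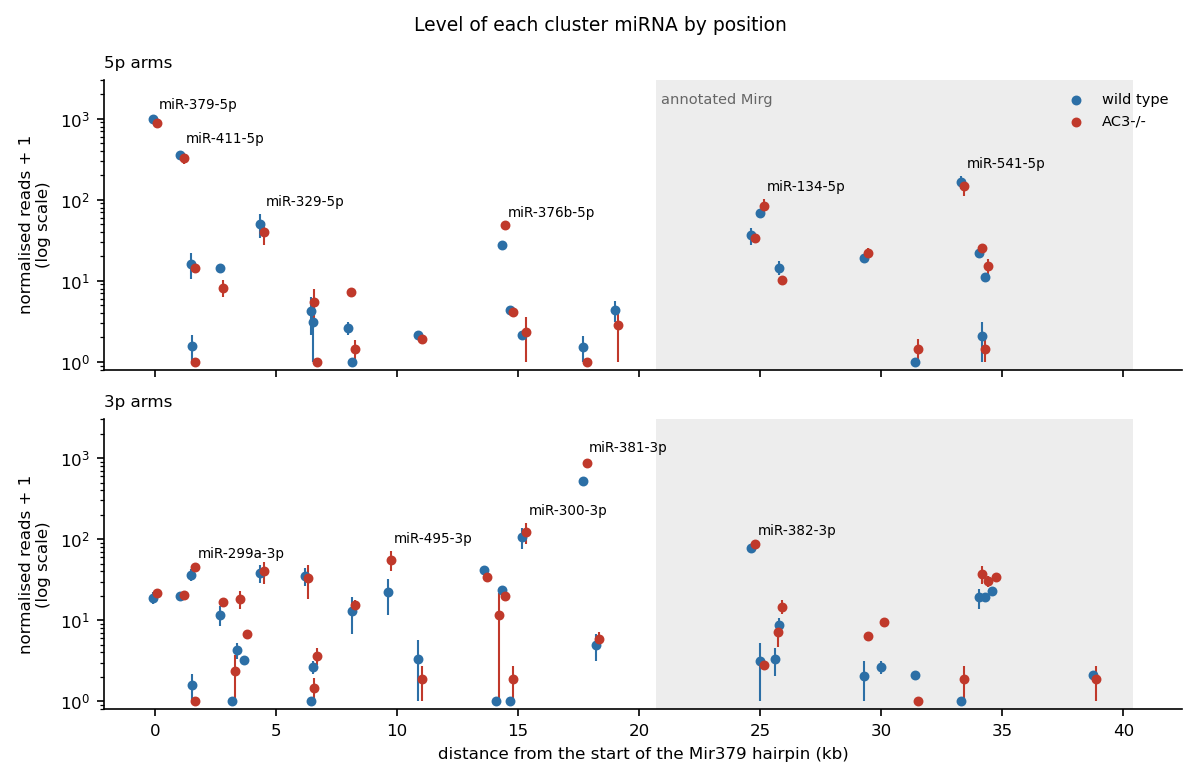
Normalised reads plus 1 (log scale) of the 59 members against the distance of their precursor from the start of the Mir379 hairpin, 5p arms above and 3p arms below. Points are genotype means, lines join the 2 libraries of a genotype, and grey marks the annotated Mirg gene; high members such as miR-379-5p, miR-381-3p and miR-541-5p stand beside precursors near 1.

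The sum over the cluster, in normalised reads, was slightly higher in AC3-/-. It was 3019.4 and 3448.9 normalised reads in the AC3-/- libraries and 2864.7 and 2825.3 in the wild-type libraries. Both AC3-/- libraries lay above both wild-type libraries, by a ratio of means of 1.14, and no test is given for a sum over members chosen by name. As a share of all normalised reads the difference was larger, 0.0370% in AC3-/- against 0.0231% in wild type, since the totals of the genotypes differ. Most of the difference in the means of the sum was that of miR-381-3p, at 878.2 in AC3-/- and 521.6 in wild type. No sum was made without miR-381-3p alone, so a rise shared across the cluster is not shown by the full sum. Without the 3 most abundant members the sums were 1159.5 and 1116.9 against 1034.9 and 915.6, a ratio of 1.17. These 3 include miR-379-5p and miR-411-5p, whose means were lower in AC3-/- (894.4 against 995.5, and 323.4 against 352.6). In a piece of tissue, more cells of a type and more miRNA per cell cannot be told apart.

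The deposited log2 fold changes of the single members lay mostly near 0 and more often above it. The authors' deposited table placed 36 of 59 members (61.0%) above 0 and 23 below, with a median log2 fold change of 0.13, where 578 of all 1167 rows (49.5%) lay above 0 with a median of -0.01. These fold changes are shrunken toward 0 by the authors. None of the 59 members passed an adjusted p of 0.05 in the authors' deposited table, where 1 of 1167 rows did (0.0857%), and the smallest adjusted p of a member was 0.94. An unadjusted p under 0.05 was given to 3 members in the authors' deposited table, against 41 of all rows (3.51%). All 3 were higher in AC3-/- (background 1.54%) and 0 lower (background 1.97%). Members in the annotated Mirg gene had a median of 0.17 (14 of 21 above 0) and those before it 0.08 (22 of 38).

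miR-381-3p, the second most abundant member, had the largest difference among the 10 most abundant. Among the 12 most abundant, miR-495-3p and miR-376b-5p, described below, had larger ones. The level of miR-381-3p was 818.9 and 937.6 normalised reads in the AC3-/- libraries and 464.3 and 578.9 in the wild-type libraries. Both AC3-/- values exceeded both wild-type values, and the ratio of means was 1.68. limma was fitted to the 441 miRNAs with a mean of at least 10 whose library values were solved. For miR-381-3p its log2 difference was 0.76 (standard error 0.33, limma adjusted p = 0.931). The authors' deposited table gave p = 0.0276 and an adjusted p of 0.940. miR-300-3p, which differs from it at the 3 positions given above, did not show this pattern. It had 156.8 and 85.56 in AC3-/- against 134.9 and 74.84 in wild type, so the genotypes overlapped and the libraries of 1 genotype lay further apart than the genotypes (log2 difference 0.20, standard error 0.49).

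miR-323-3p had the largest difference among members with a mean of at least 10 over both genotypes, on few reads. It had 25 and 14 reads in AC3-/- and 4 and 2 in wild type, which is 21.78 and 12.74 against 4.25 and 2.34 normalised. Both AC3-/- libraries lay above both wild-type ones. The mean was 5.24-fold higher, and limma put the log2 difference at 2.08 (standard error 0.65, adjusted p = 0.931). The authors' deposited table gave p = 0.00938 and an adjusted p of 0.940. miR-496a-3p, from the Mirg part of the cluster, was scarcer still, at 9 and 10 reads against 2 and 1. Its deposited log2 fold change was 1.01 (p = 0.0448 in the authors' deposited table), and it was too low for the limma fit.

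The other large positive differences were those of miR-495-3p, miR-409-3p and miR-376b-5p. miR-495-3p, known in neurons for targeting Bdnf, had 39.2 and 70.09 normalised reads in AC3-/- and 10.63 and 31.57 in wild type. The groups did not overlap, but the libraries of each genotype differed widely (log2 difference 1.46, standard error 0.63). Its near relative miR-543-3p had 16.55 and 11.83 against 18.06 and 5.85 (0.39, standard error 0.68). miR-409-3p had 27.01 and 45.51 against 23.38 and 12.86 (0.97, standard error 0.51). miR-376b-5p had 47.91 and 47.33 against 29.75 and 23.39 (0.83, standard error 0.37), with all AC3-/- values above all wild-type values. The miR-376 hairpins are known substrates of A-to-I RNA editing, and edited reads cannot be told apart in the table.

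Fewer members lay below 0. miR-380-5p was lowest, with 5.23 and 9.10 normalised reads in AC3-/- and 11.69 and 15.2 in wild type (log2 difference -0.85, standard error 0.58). The groups did not overlap, on 6, 10, 11 and 13 reads. miR-485-5p had 8.71 and 10.01 against 10.63 and 16.37 (-0.46, standard error 0.54), and miR-376c-3p 33.1 and 32.77 against 42.5 and 38.59 (-0.29, standard error 0.36). miR-329-5p and miR-376b-3p overlapped between genotypes, with log2 differences of -0.31 (standard error 0.54) and -0.21 (standard error 0.44).

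The most abundant members had no common direction. miR-379-5p had 767.5 and 1021.3 normalised reads in AC3-/- and 1052.0 and 939.0 in wild type, and the genotypes overlapped (log2 difference -0.17, standard error 0.33). miR-411-5p, from the next hairpin, had 273.5 and 373.2 against 313.5 and 391.8 (-0.13, standard error 0.36). miR-541-5p had 180.3 and 111.1 against 194.5 and 133.3 (-0.18, standard error 0.42). miR-134-5p, known for limiting the size of dendritic spines, had 66.21 and 101.0 against 72.26 and 64.32 (0.26, standard error 0.38). miR-382-3p had 88.86 and 83.74 against 68.0 and 86.54 (0.17, standard error 0.34), and miR-299a-3p had 43.56 and 44.6 against 41.44 and 29.24 (0.33, standard error 0.38). Of these, miR-299a-3p alone did not overlap between the genotypes.

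**Figure D2:**
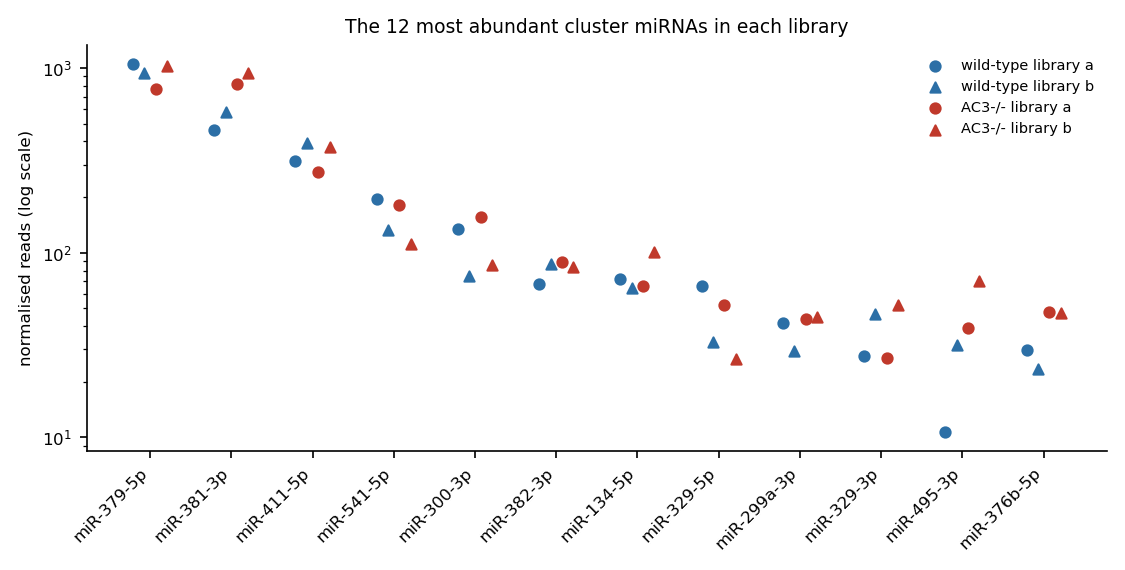
Normalised reads (log scale) of the 12 most abundant members in each of the 4 libraries, wild type in blue and AC3-/- in red, circles for library a and triangles for library b. miR-381-3p, miR-299a-3p, miR-495-3p and miR-376b-5p have both red points above both blue ones; the other 8 overlap.

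Over all 31 members in the limma fit, 20 had a positive log2 difference and the median was 0.20, against 219 of 441 and a median of 0.00 over all miRNAs fitted. limma called 0 of the 31 at an adjusted p of 0.05 (0 of 441, 0%), with the smallest at 0.931. At an unadjusted p under 0.05 limma gave 1, miR-323-3p, against 16 of 441 (3.63%). It was higher (background 2.27%), and 0 members were lower (background 1.36%). Standard errors of the members ran from 0.33 to 0.68 on the log2 scale. Both AC3-/- libraries lay above both wild-type libraries for 13 of the 31 members, where 16.8% of the 441 did. They lay below for 3, where 17.0% did.

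**Figure D3:**
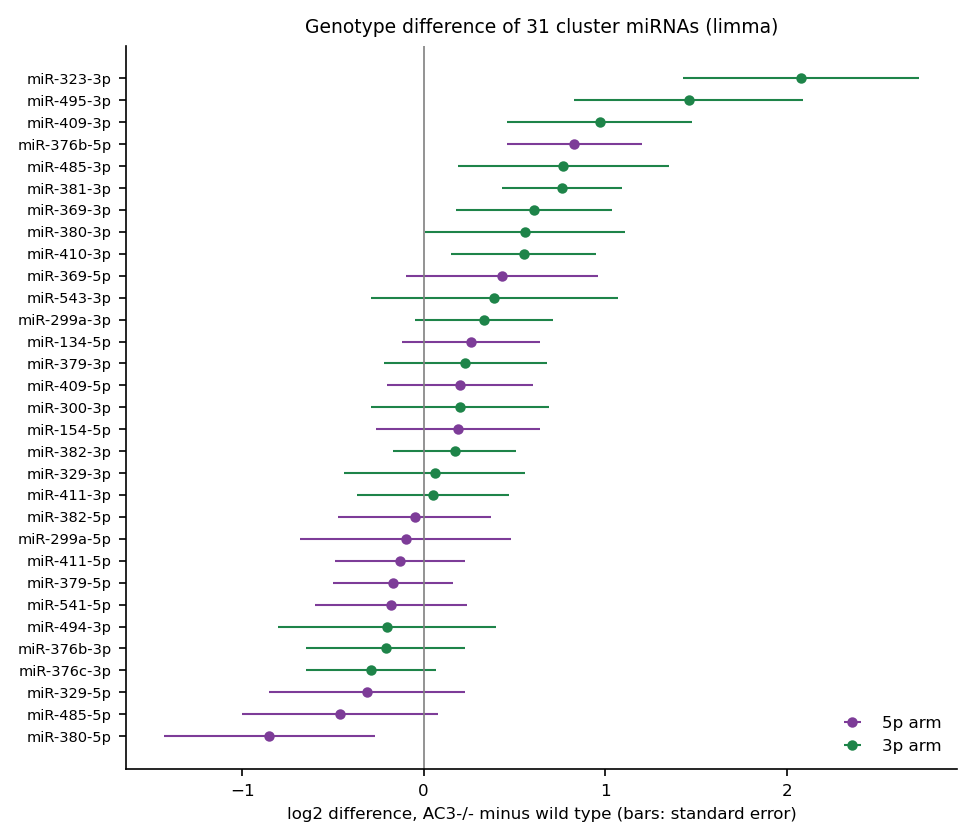
limma log2 difference, AC3-/- minus wild type, with its standard error, for the 31 members with a mean of at least 10, ordered by size, 5p arms in purple and 3p arms in green. 20 lie above 0, the highest being miR-323-3p at 2.08 and the lowest miR-380-5p at -0.85.

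The 3p arms were above 0 more often than the 5p arms. Among members with a mean of at least 10, the authors' deposited table placed 15 of 18 3p arms above 0 (median log2 fold change 0.21) and 5 of 13 5p arms (median -0.11). Over all rows of that level the shares were 114 of 238 3p arms and 95 of 228 5p arms, with medians of -0.02 and -0.08. The arms of a hairpin come from 1 transcript, so their ratio is a measure apart from the level of the cluster.

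Members differed widely in which arm was found. Of the 22 precursors with both arms in the table, the 5p arm had the higher mean in 10, the 3p arm in 11, and the arms of Mir299b were equal. Mir379 gave 48.6 times as many 5p as 3p reads and Mir134 38.9 times as many. Mir300 gave 93.3 times as many 3p as 5p reads, and Mir381 had 1 read of its 5p arm in all. Mir329 and Mir485 had ratios of means of 1.16 and 1.07, but their libraries leaned to opposite sides. The log2 ratio of 5p to 3p, with 1 added to each, was 0.93 and -0.95 in AC3-/- and 1.22 and -0.50 in wild type for miR-329. 4 hairpins are shown with both mature arms in capitals, Mir379 for its strong 5p side, Mir329 and Mir380 because the larger arm differed between libraries, and Mir382 for its 3p side (RefSeq, GRCm38.p6, plus strand, chr12:109709060-109709125, chr12:109713481-109713577, chr12:109711803-109711863 and chr12:109733771-109733846):
Mir379: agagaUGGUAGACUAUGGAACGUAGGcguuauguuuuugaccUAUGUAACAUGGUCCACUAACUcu
Mir329: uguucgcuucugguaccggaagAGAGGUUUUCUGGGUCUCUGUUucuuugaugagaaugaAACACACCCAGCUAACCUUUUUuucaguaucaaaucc
Mir380: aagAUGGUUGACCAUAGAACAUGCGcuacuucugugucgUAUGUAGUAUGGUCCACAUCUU
Mir382: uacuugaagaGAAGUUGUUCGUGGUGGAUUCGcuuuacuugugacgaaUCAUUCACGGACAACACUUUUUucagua

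The balance of the arms leaned toward 3p in AC3-/- for most precursors without passing the test. This log2 ratio could be fitted for 11 cluster precursors among 139 in the whole table (at least 10 normalised reads in the larger arm and 3 in the smaller). It was lower in AC3-/- for 10 of the 11, where 77 of the 139 were lower (55.4%), and the median difference was -0.40 against -0.05 over all 139. Among those lower, the libraries of the genotypes overlapped for miR-379, miR-411, miR-299a, miR-329, miR-382 and miR-369. The largest difference, -1.65 for miR-154 (standard error 1.03), rested on a 3p arm with 6 and 6 reads against 2 and 0. limma called 0 of the 11 at an adjusted p of 0.05 (0 of 139, 0%) and gave 1 an unadjusted p under 0.05, against 9 of 139 (6.47%). That precursor was miR-380, with ratios of -1.34 and -0.78 in AC3-/- and 0.59 and 0.11 in wild type (difference -1.41, standard error 0.63, adjusted p = 0.618). miR-380-3p had 14.81 and 16.38 normalised reads against 7.44 and 14.03, while miR-380-5p was lower. The larger arm was thus 3p in AC3-/- and 5p in wild type, there by few reads (5p 11 and 13, 3p 7 and 12). miR-485 had ratios of -0.85 and -0.11 against 0.14 and 1.34 (difference -1.22, standard error 0.66). The exception was miR-376b, at 1.16 and 1.40 against 0.61 and -0.13 (difference 1.04, standard error 0.51, adjusted p = 0.735). With 1 library left out, 7 (without wild-type library a), 8 (without AC3-/- library b) or 9 (without either of the others) of the 11 were lower.

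**Figure D4:**
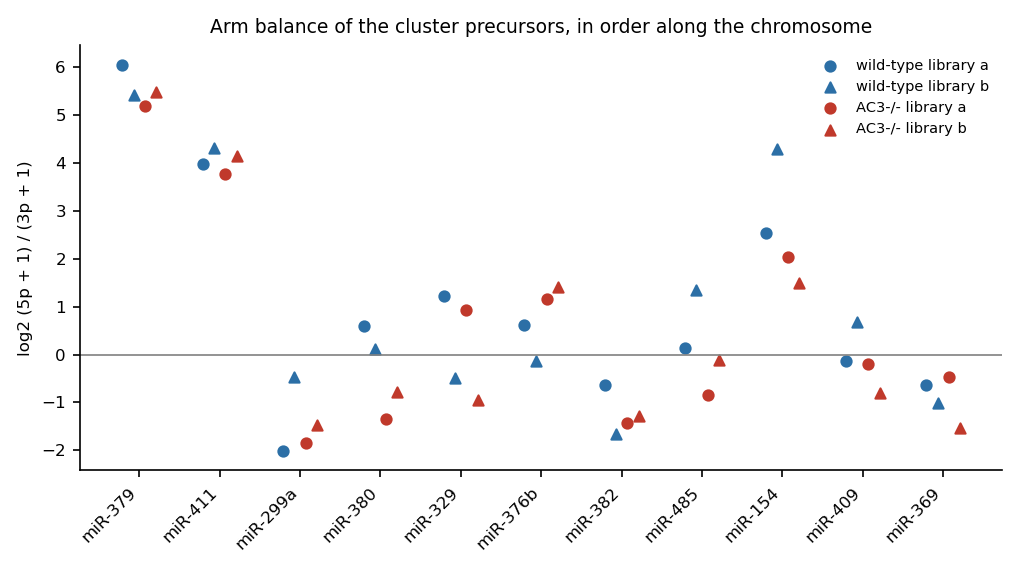
log2 ratio of 5p to 3p normalised reads, 1 added to each, in every library for the 11 cluster precursors in the arm fit, in order along the chromosome. These had a mean of at least 10 normalised reads in the larger arm and 3 in the smaller. miR-379 and miR-411 stay far on the 5p side in all 4 libraries, and for miR-380 the AC3-/- points lie below 0 and the wild-type points above it.

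The libraries of 1 genotype also differed, and the cluster took little part in the largest of these differences. Wild-type library b stood apart from the other 3 in the levels of cell type markers. Ciliated-cell miRNAs such as miR-34b and miR-34c (8 of 9 rows with library values) summed to 13868.7 and 26257.0 normalised reads in the AC3-/- libraries, and to 30647.9 and 5975.7 in the wild-type ones. Leukocyte miRNAs such as miR-142a and miR-223 (10 of 10) summed to 15875.8 and 20355.0 against 18174.3 and 6450.5. Sensory epithelium miRNAs of the miR-183 and miR-200 families (7 of 16) summed to 5800.1 and 5296.7 against 5954.7 and 19918.6. Wild-type library b was thus lowest in the first pair of lists and highest in the last. Neuronal miRNAs such as miR-124 (9 of 11) summed to 8703.6 and 8614.6 against 7617.6 and 11187.8, red cell miRNAs (5 of 5) to 6949.1 and 5259.4 against 6600.7 and 3698.8, and muscle miRNAs (6 of 6) to 6560.6 and 4398.3 against 6620.9 and 7034.0. Rows without library values are not in these sums, and 0 rows of the lists were at 0. The rows left out are highly abundant, since no mean below 16548.5 in AC3-/- or 16503.9 in wild type went unsolved. The sums are therefore not the level of a whole list where rows are missing, above all in the sensory epithelium list, which lacks 9 rows. Wild-type library a was near the AC3-/- libraries in the sensory epithelium sum, between them in the leukocyte sum and above both in the ciliated-cell sum. Genotype differences of these lists therefore cannot be told apart from the difference of wild-type library b. With that limit, log2 fold changes in the authors' deposited table were above 0 in 9 of 9 ciliated-cell rows (median 0.05) and 9 of 10 leukocyte rows (median 0.32). They were above 0 in 0 of 16 sensory epithelium rows (median -0.74), 6 of 11 neuronal rows (0.04), 1 of 5 red cell rows (-0.10) and 1 of 6 muscle rows (-0.20). Over the same libraries the cluster sums, given above, differed by little between wild-type libraries a and b. A 2-fold or larger gap between the wild-type libraries was found in 3 of 31 members (9.68%) and in 111 of 410 other miRNAs (27.1%). Among the 410 are 12 miRNAs upstream in the same imprinted region, described further on, and 0 of them had such a gap. The part of these cell types in the genotype differences of the members was not tested.

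Within a genotype, members often differed between libraries a and b in the same direction in AC3-/- and in wild type. miR-329-5p had 52.27 and 26.4 normalised reads in AC3-/-, and 65.88 and 32.74 in wild type. Its partner arm miR-329-3p went the other way, with 27.01 and 51.88 and with 27.63 and 46.78. miR-494-3p, at 17.42 and 47.33 and at 25.5 and 43.27, and miR-495-3p were also higher in the b libraries, and miR-300-3p and miR-541-5p were higher in the a libraries. Across the 31 members the log2 ratio of library a to b in AC3-/- had a correlation of 0.62 with that in wild type, and 21 had the same sign. Across the 410 other miRNAs it was -0.23, with 173 of the same sign. The 12 upstream miRNAs of the imprinted region among them went more as the members did, with 9 of the same sign and a correlation of 0.31. These are correlations across miRNAs that share 4 libraries, given as a description with no p, and the letters follow the size factor and pair no libraries, so exchanging them in 1 genotype turns the sign of the correlation. Over the 15 members with a mean of at least 30 the correlation was 0.80.

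**Figure D5:**
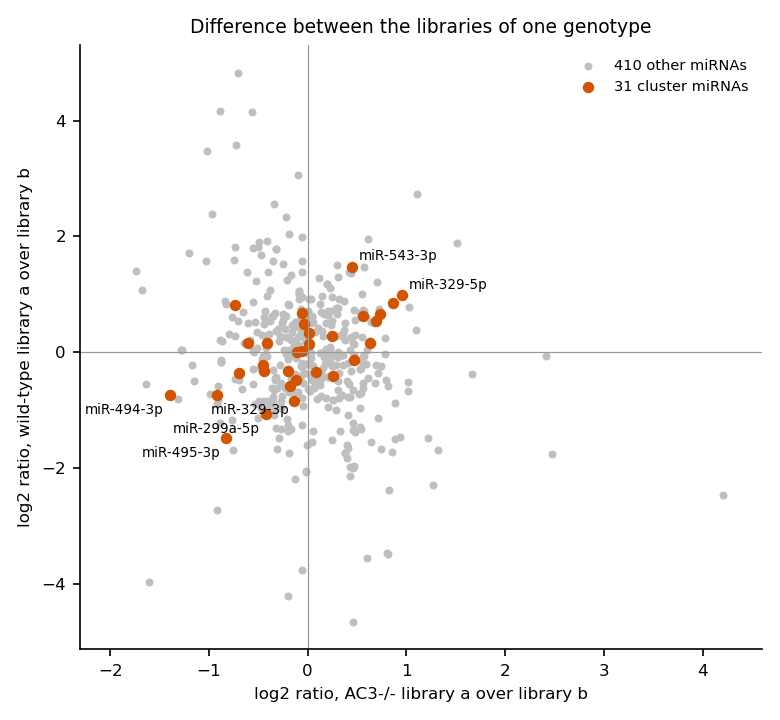
log2 ratio of library a to library b within AC3-/- (horizontal) and within wild type (vertical), 1 added to each value, for 31 members (orange) and 410 other miRNAs (grey) with a mean of at least 10. The members run from miR-494-3p and miR-495-3p at the lower left to miR-329-5p at the upper right, and most lie closer to 0 on the vertical axis than the widest of the other miRNAs.

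The miRNAs upstream in the same imprinted region, which face the gene Rtl1 or lie near Meg3 and Rian, also lay mostly above 0. The authors' deposited table placed 19 of 25 such rows above 0 (median 0.18, log2 fold change), against 578 of all 1167 rows (49.5%). None passed the adjusted p (1 had an unadjusted p under 0.05). At a mean of at least 10, 11 of 12 upstream rows were above 0 (median 0.27). The members at that level had 20 of 31 (median 0.16), and all rows 219 of 492. The upstream miRNAs summed to 3823.5 and 3188.6 normalised reads in AC3-/- and 3345.0 and 2845.2 in wild type, a ratio of means of 1.13, and here the genotypes overlapped. The difference between these miRNAs and the cluster was not tested.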

How the data were processed

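Small RNA of the main olfactory epithelium was sequenced from 4 samples, 2 wild type and 2 AC3-/-, grouped by title. The authors deposited 1 table of 1167 miRNAs. Its abundance columns hold a signal, a mean of normalised reads per genotype (per the file headers, with the unit read from the values). It also gives the authors' log2 fold change, which is shrunken (in rows with a mean of at least 100, the median row keeps 86.1% of its log2 ratio), and the authors' p-value with its Benjamini-Hochberg adjustment over all rows. Bowtie, DESeq 1.8.3 and GRCm38 are listed, without role or order, in the submitters' processing notes. The sources used here do not give the counter or the miRBase release.

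Each mean is a whole-number combination of the values of 1 read in 2 libraries, so library reads were solved (relative tolerance 8e-10). For AC3-/- 1118 rows and for wild type 1117 had 1 solution, all 59 members among them; size factors were 1.1479 and 1.0986 (libraries a and b) and 0.9411 and 0.8551. The solver and the limma fit of levels were tested on simulated data, the fit with large changes set in. The fit of arm ratios was not tested in this way. Reads carry no described molecular identifier and may repeat a molecule.

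Differences were fitted with limma 3.58.1 (R 4.3.3, variance trended on mean level) on log2(normalised value + 1), for rows whose mean was 10 or more. The added 1 shrinks differences at low levels. Members and lists were chosen with earlier results of these data known. The planned permutation test of the cluster sum is not reported for that reason, and 2 libraries against 2 could not go below p = 0.333. Named members were the 12 most abundant, the 5 highest and 5 lowest fold changes with at least 10 reads in the higher genotype, those with an unadjusted p under 0.05, the first and last by position, and any with the seed of these at a mean of at least 10, which added none (21 in all); every other member with values in the text was chosen after its values were seen. Alternatives were other pseudocounts, minimum means, centring and left-out libraries.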

Additional observations from a re-analysis of the deposited data

How the results depend on the processing

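Calls of members did not change with the processing tried. limma called 0 members with pseudocounts of 0.5 and 5, minimum means of 1 and 50, each library centred on its median, and each library left out (range 0 to 0), and 0 arm ratios with the smaller arm at 10 or more, a pseudocount of 5 or a library left out (range 0 to 0). Over all precursors 6 arm ratios passed without wild-type library a and 1 without wild-type library b, where 4 and 2 of the cluster had an unadjusted p under 0.05. The smallest adjusted p of a member was 0.0683 without wild-type library a, where 64 miRNAs of the whole fit passed, and 0.0982 without wild-type library b, where 1 did; the lone library is then assumed to vary like the others. No member passed in the authors' deposited table, also when adjusted over rows with a mean of at least 10, and 3 had an unadjusted p under 0.05. The log2 ratio of the cluster sums was 0.18, 0.12 with each library centred on its median, 0.34 without miR-379-5p, and 0.09 to 0.28 with a library left out. The median log2 fold change was 0.13, and 0.08 to 0.28 with a library left out. Of 19 members fitted, 9 changed sign in some setting, each with a log2 difference within 0.33 of 0. With a library left out they ran from -0.37 to 0.04 for miR-379-5p, -0.01 to 0.47 for miR-379-3p, -0.36 to 0.09 for miR-411-5p, -0.81 to 0.18 for miR-329-5p, -0.40 to 0.52 for miR-329-3p (-0.01 when centred), -0.23 to 0.64 for miR-300-3p, -0.005 to 0.34 for miR-382-3p, -0.04 to 0.56 for miR-134-5p and -0.53 to 0.16 for miR-541-5p. With a library left out, miR-381-3p lay between 0.60 and 0.91, miR-323-3p between 1.71 and 2.44 (1.40 with a pseudocount of 5), miR-495-3p between 0.71 and 2.20 and miR-409-3p between 0.57 and 1.38. No paired analysis was possible because the recovered libraries carry no replicate number. 28 members with a mean under 10 are limited by their reads.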

Other observations

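Among the 28 members with a mean under 10 normalised reads, miR-654-3p was found in 1 library alone. It had 23 reads in AC3-/- library b and 0 in AC3-/- library a and in both wild-type libraries, so its genotype mean of 10.47 in AC3-/- rests on that library. The neighbouring hairpins did not share this: miR-376c-3p had 33.1 and 32.77 normalised reads in AC3-/- and miR-376b-5p had 47.91 and 47.33.

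Other scarce members were higher in both AC3-/- libraries. miR-154-3p had 6 and 6 reads against 2 and 0, miR-666-5p 7 and 7 against 2 and 1, and miR-758-3p 6 and 7 against 2 and 2. All 3 were chosen after their values were seen, and in the authors' deposited table their unadjusted p was above 0.05. miR-377-3p and miR-667-5p were lower in both AC3-/- libraries in normalised reads, on 0 or 1 read in each library. How often scarce rows of the whole table separate by genotype in either direction was not counted. The arms of Mir299b, antisense to Mir299a, were listed with 1 read each, both in wild-type library b. The sequence of miR-299b-5p is that of miR-299a-5p without its first base, and miR-299b-3p is the first 18 bases of miR-299a-3p. Reads of Mir299b therefore cannot be told apart from shortened reads of Mir299a.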
